A study of Acer rubrum with 15 samples.

Results

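Small RNA of red maple leaves held under 40% light (LL) was compared with that of leaves held under 100% light (LC), all of them kept cool for 14 days (days at 15 °C, nights at 5 °C). The members were the entries of the deposited count table that name a miRNA: 243 miRNAs, 76 of them predicted and the others mature miRNAs with a known name, and 176 hairpins (their precursors), which made 419 of 8849 entries in all. They were read in the 3 LL and 3 LC libraries, 6 of 15 libraries. The study crossed these light levels with that cool regime and with a warm one (days at 30 °C, nights at 20 °C), in cuttings of Acer rubrum 'Autumn Blaze', a maple grown for its autumn leaf colour. LL held 40% light in the cool regime and LC 100% light in the cool regime. CL held 40% light in the warm regime and CC 100% light in the warm regime, all sampled on day 14. The last group, Control, was untreated mixed leaves of day 0, for which the labels give no light level. Each group had 3 libraries. All came from 1 cultivar grown in an ordinary greenhouse beforehand. The labels call the libraries biological replicates without saying whether each is a plant of its own, so p-values speak of the spread between samples, which may be technical.

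In plants, miRNAs are cut from hairpin precursors by a Dicer-like enzyme, loaded into ARGONAUTE proteins and paired with messenger RNAs, which are then cut or held back from translation. Several families answer to the supply of phosphate, sulfate or copper, and others set the phase of shoot growth, organ boundaries, leaf polarity and auxin response. The roles given here are those known from Arabidopsis and other plants, not from maple.

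The libraries held 18166662 to 20613304 counted reads in LL and 15652847 to 16291802 in LC, of which 2393563 to 3272924 in LL and 2184412 to 4045539 in LC carried a mature or predicted miRNA name. Levels are in CPM of the library's miRNA reads after TMM scaling (trimmed mean of M-values, a factor that evens out a few very abundant miRNAs), so the CPM of libraries do not all sum to the same total. Families were scaled by TMM on their own sums, and their CPM is taken over the reads of named families. LC replicate 1 stood apart. Its miRNA members took 26.4% of all reads, against 15.7% and 14.8% in the other LC libraries, and the entry miR398b took 27.2% of its miRNA reads, against 6.58% and 4.50%. Entries named for RNA of other organisms also moved with the groups. The 4 entries for transfer-messenger RNA, an RNA of bacteria, ran at 631 to 889.8 RPM, taken over all reads, in LL and 1697 to 3007 in LC. The 66 precursor entries named for non-plant miRNA families ran at 2.48 to 4.07 in LL and 125 to 273 in LC. Their part in the results was not tested. No family named miR2275, which is tied to reproductive tissue, was among the 35 families of the table, and none was named miR2118.

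Single miRNAs, families (the summed mature and hairpin reads of all entries with the same number) and hairpin entries were each fitted by quasi-likelihood in edgeR, with p-values adjusted after Benjamini and Hochberg over all features of the table, and a call is an adjusted p under 0.05. Of 179 miRNAs tested, 91 were called (50.8%), 57 higher in LL than in LC (31.8%) and 34 lower (19.0%). The LL and LC libraries did not overlap in 86 of these 91, where the share over all 179 tested was 54.7%, 33.5% with LL above LC and 21.2% with LL below it. Of 34 families tested, 13 were called (38.2%), 9 higher (26.5%) and 4 lower (11.8%). The libraries overlapped in 1 of the 13, miR162, and over all 34 families they did not overlap in 55.9%, with LL above LC in 35.3% and below it in 20.6%. Of 105 hairpin entries tested, 35 were called (33.3%), 15 higher (14.3%) and 20 lower (19.0%), and the libraries of 47.6% of those tested did not overlap, 20.0% with LL above LC and 27.6% with LL below it. The median log2 difference, LL minus LC, was -0.03 over all tested miRNAs, 0.50 over families and -0.18 over hairpin entries. In leaf RNA, fewer cells that hold a miRNA and less of it in each cell cannot be told apart.

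The split of the families into higher and lower depended on the scaling. With the library sizes and TMM factors of the miRNA table in place of their own, the median of families moved by -0.62 to -0.12 and 16 were called, 7 higher and 9 lower, with 11 families called both ways. miR157, miR159, miR166, miR171 and miR390 then passed, all lower in LL, and miR162 and miR167 no longer did. The split was 8 higher and 9 lower with DESeq2 and with size factors by relative log expression, 7 and 6 by library size alone, 6 and 9 when every read of a library was taken as its size, and 6 and 6 with the LL and LC libraries fitted alone. Of the 13 families, miR156, miR164, miR168, miR2111, miR397, miR399, miR408 and miR827 kept their calls and directions in all 17 alternatives run. Among single miRNAs 61 were called with the LL and LC libraries alone, 32 higher and 29 lower. Without LC replicate 1, 89 miRNAs (53 higher, 36 lower) and 17 families (10 higher, 7 lower) were called.

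**Figure D1:**
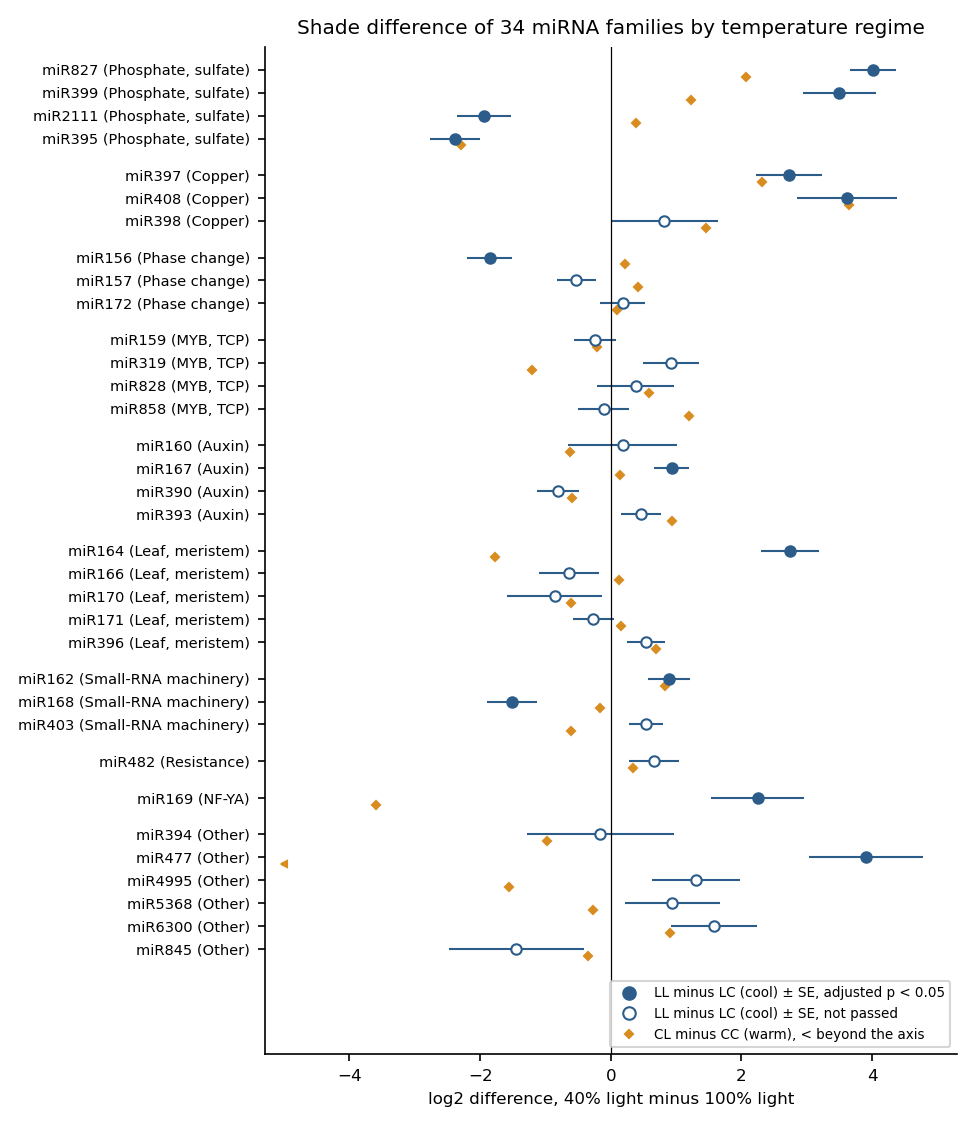
Log2 difference between 40% and 100% light for each of 34 families, grouped by role. Circles give LL minus LC in the cool regime with the SE (filled where the adjusted p was under 0.05), and diamonds give CL minus CC in the warm regime, with 1 value beyond the axis, miR477 at -6.95. In the cool regime the values ran from -2.39 for miR395 to 4.01 for miR827. Above 0 in the cool regime and below 0 in the warm one lay miR160, miR164, miR169, miR319, miR403, miR477, miR4995 and miR5368.

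Of the 4 families tied to phosphate and sulfate supply, miR827 and miR399 rose in LL, miR2111 and miR395 fell, and none missed the test. Among their single miRNAs 7 of 10 rose and none fell (median log2 difference 3.97, against -0.03 over all tested). Over all tested miRNAs 31.8% rose and 19.0% fell. Of the 10, 6 were entries of miR399, which all rose, 1 was that of miR827 and 3 were those of miR395, which did not pass. No mature entry of miR2111 could be tested, so the count is mostly that of miR399. Among the hairpin entries of the 4 families 4 rose and 4 fell of 11, where 14.3% rose and 19.0% fell over all tested.

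miR827, which targets transporters and ligases with an SPX domain that handle phosphate, stood at 1305, 1447 and 1209 CPM in the LL libraries, against 88.9, 96.9 and 59.6 CPM in the LC libraries. All LL libraries lay far above all LC libraries, and the spread within LL was small. The difference was 16.1-fold (log2 4.01 ± 0.35, adjusted p = 6.62e-07). Its reads were mostly those of the mature entry miR827a, which had on the scale of single entries 643 ± 31.7 CPM in LL and 55.6 ± 22.5 CPM in LC (SD, n = 3 each), and its hairpin rose as well (log2 2.72 ± 0.58, adjusted p = 0.0035).

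miR399, which represses a ubiquitin-conjugating enzyme that holds back phosphate uptake, stood at 8577, 11096 and 12334 CPM in the LL libraries, against 1909.5, 394 and 528 CPM in the LC libraries. The groups did not overlap, and LC replicate 1 was the highest of its group. The family rose 11.3-fold (log2 3.50 ± 0.56, adjusted p = 0.000211), or by log2 4.19 without LC replicate 1. All 6 of its tested mature entries rose, with log2 differences of 3.28 to 6.35, and all 6 were higher in LL than in LC without overlap. miR399b, the most abundant of them, had 1885, 2402 and 3088 CPM in LL and 564, 83.3 and 110.2 CPM in LC. In others LC held almost nothing outside replicate 1: miR399f_3 had 567, 415 and 729 reads in LL and 19, 1 and 0 reads in LC, and miR399a_3 had 1242, 1832 and 2462 reads in LL and 71, 0 and 3 reads in LC. Their log2 differences were 6.35 ± 1.15 (adjusted p = 0.000951) and 6.19 ± 1.30 (adjusted p = 0.00219), and 9.67 and 9.93 without LC replicate 1. Of miR399a_6, miR399j_2 and miR399_1, the reads in LC again sat mostly in replicate 1, with 35.7, 5.66 and 4.56 CPM for miR399a_6, 7.22, 0.377 and 0.911 CPM for miR399j_2 and 3.61, 0 and 0 CPM for miR399_1 in the LC libraries. Without that library their log2 differences were 5.84, 6.55 and 9.09, and where the LC libraries that remain hold 0 to 3 reads such a fitted value is no measure of size. The calls of miR399a_3 and miR399_1 were lost when the LL and LC libraries were fitted alone (adjusted p = 0.0638 and 0.0715). Among hairpins, that of miR399a_3 had 538, 723 and 872 reads in LL and 18, 0 and 0 in LC, and that of miR399j_2 had 20, 58 and 89 reads in LL and 5, 1 and 2 in LC. Both rose (log2 6.84 ± 1.58 and 4.27 ± 1.04, adjusted p = 0.00624 and 0.0101; 12.56 and 5.03 without LC replicate 1).

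miR2111, a shoot signal of nitrogen and phosphate supply, stood at 13.1, 17.6 and 15.8 CPM in the LL libraries, against 76.6, 47.9 and 53.9 CPM in the LC libraries. It was low in every LL library and fell 3.82-fold (log2 -1.93 ± 0.42, adjusted p = 0.00158). Nearly all of its reads were counted under the hairpin entry, which averaged, on the scale of single entries, 8.70 CPM in LL and 49.9 CPM in LC. miR395, which represses sulfate-activating enzymes and a sulfate transporter, stood at 187, 286 and 118 CPM in the LL libraries, against 1346, 675 and 1078 CPM in the LC libraries. All LC libraries lay above all LL libraries, and the family fell 5.24-fold (log2 -2.39 ± 0.38, adjusted p = 0.000211). Its single entries did not pass, and the reads sat under different names from library to library. miR395a_5 had 0, 0 and 67.6 CPM in LL and 0.401, 614 and 0.456 CPM in LC, and miR395b_3 had 95.5, 141 and 0 CPM in LL and 966, 3.02 and 919 CPM in LC. Each library held nearly all of these reads under 1 of the names, so how they were divided between near-identical entries is uncertain, and the call was lost when the most abundant entry stood in for the sum (adjusted p = 0.359). The hairpin of miR395a_5 fell as well, with 1, 3 and 2 reads in LL and 27, 12 and 18 reads in LC (log2 -3.21 ± 0.78, adjusted p = 0.00794).

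The copper families, which repress copper proteins when the metal is short, were higher in LL where they passed. Of 3 families measured, miR397 and miR408 rose and miR398 did not pass. Of 7 tested mature entries 5 rose and none fell (median log2 difference 2.66), where 31.8% rose and 19.0% fell over all tested miRNAs. The 5 were 2 entries of miR397 and 3 of miR408, so the count repeats the calls of those families. Of 8 hairpin entries 3 rose, where 14.3% rose over all tested hairpin entries. miR397, which targets laccases, stood at 577, 738 and 1030.5 CPM in the LL libraries, against 199.6, 81.6 and 72.6 CPM in the LC libraries, without overlap (6.63-fold, log2 2.73 ± 0.51, adjusted p = 0.0006). miR408, which targets plantacyanin and laccases, stood at 11179, 16002 and 4318 CPM in the LL libraries, against 1484, 168.1 and 918 CPM in the LC libraries. The groups did not overlap although each spread widely, and the difference was 12.3-fold (log2 3.62 ± 0.77, adjusted p = 0.00158). miR398, which targets copper/zinc superoxide dismutases, stood at 533959, 348463 and 381550.0 CPM in the LL libraries, against 600583, 64105 and 52553 CPM in the LC libraries. LC replicate 1 exceeded every LL library while the other LC libraries lay below all of them. The log2 difference was 0.82 ± 0.82 (adjusted p = 0.421) and became 2.52 (adjusted p = 0.0139) without LC replicate 1. The entry miR398b followed the family, at 0.35 ± 0.79 (adjusted p = 0.775) with that library and 2.05 (adjusted p = 0.0313) without it.

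Of the families of phase change, miR156 fell in LL and miR157 and miR172 did not pass. miR156 and miR157 repress the SPL factors that end the juvenile phase, and miR172 represses AP2-like factors later in development. Of 14 single miRNAs tested in this list 9 fell and 1 rose (median log2 difference -1.40), and of 15 hairpin entries 8 fell and none rose (median -1.63). Those 9 miRNAs were 5 entries of miR156, 3 of miR157 and 1 of miR172, so the count is mostly that of miR156 and miR157. Over all tested, 19.0% of miRNAs fell and 31.8% rose, and 19.0% of hairpin entries fell and 14.3% rose.

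miR156 stood at 3511, 4779 and 5171 CPM in the LL libraries, against 14656, 17154 and 16921 CPM in the LC libraries. Every LL library lay far below every LC library, a 3.62-fold lower level (log2 -1.86 ± 0.35, adjusted p = 0.0006). miR156a-5p, the name shared by 155 miRNAs of 36 species, was the largest entry, with 736, 874 and 1487 CPM in LL and 6431, 8615 and 6732 CPM in LC (log2 -2.81 ± 0.33, adjusted p = 3.61e-05). miR156k_2 fell by 2.32 on the log2 scale and the entry miR156a by 2.44 (adjusted p = 0.000241 and 3.61e-05). The opposite strand of the precursor, miR156e-3p_1, also fell, with 59.5, 78.4 and 62.0 CPM in LL and 359.6, 158.8 and 173 CPM in LC (log2 -1.79 ± 0.42, adjusted p = 0.00429). Among the hairpins, that of miR156k_2 had 29.2 CPM in LL and 383 CPM in LC (log2 -3.71 ± 0.74), and that of miR156c_1 had 25.3 CPM in LL and 236 CPM in LC (log2 -3.22 ± 0.38), with adjusted p = 0.00227 and 7.13e-05.

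miR157 stood at 7612, 10199 and 10464 CPM in the LL libraries, against 11755, 13812 and 15215 CPM in the LC libraries. The groups did not overlap, but log2 -0.53 ± 0.30 missed the threshold (adjusted p = 0.167). It passed with the factors of the miRNA table, at -1.14 (adjusted p = 0.000855), and also without LL replicate 1 (-0.73, adjusted p = 0.0387) and without LC replicate 1 (-0.98, adjusted p = 0.00169). The sum passed too with size factors by relative log expression, with DESeq2, with the LL and LC libraries alone (-0.69, adjusted p = 0.0237) and with its most abundant entry (-0.98, adjusted p = 0.0319). In the fit of single miRNAs all 3 of its mature entries fell without overlap (log2 -1.45 to -1.16, adjusted p = 0.00144 to 0.00357). Of its 3 tested hairpin entries 2 fell. miR172 stood at 245, 259 and 128 CPM in LL and 130.4, 186 and 242 CPM in LC as a sum, with overlapping libraries (log2 0.18 ± 0.35, adjusted p = 0.676), a sign that turned to -0.47 with the factors of the miRNA table. With the most abundant entry in place of the sum it passed (1.49, adjusted p = 0.00518). Its entries went opposite ways. miR172a_3 rose, with 94.0, 101 and 52.1 CPM in LL and 30.5, 38.5 and 52.4 CPM in LC (log2 1.02 ± 0.31, adjusted p = 0.0166), although the libraries met. miR172b-5p_4 had 1, 2 and 2 reads in LL and 36, 107 and 115 reads in LC (log2 -5.66 ± 0.89, adjusted p = 0.000312). It was near 0 in every LL library, and group means elsewhere were 0.347 CPM in CL, 0.727 CPM in CC and 0.376 CPM in Control. The entry miR172b, not tested because too few libraries held it, had 0 reads in all LL libraries and 63, 128 and 1 reads in LC.

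**Figure D2:**
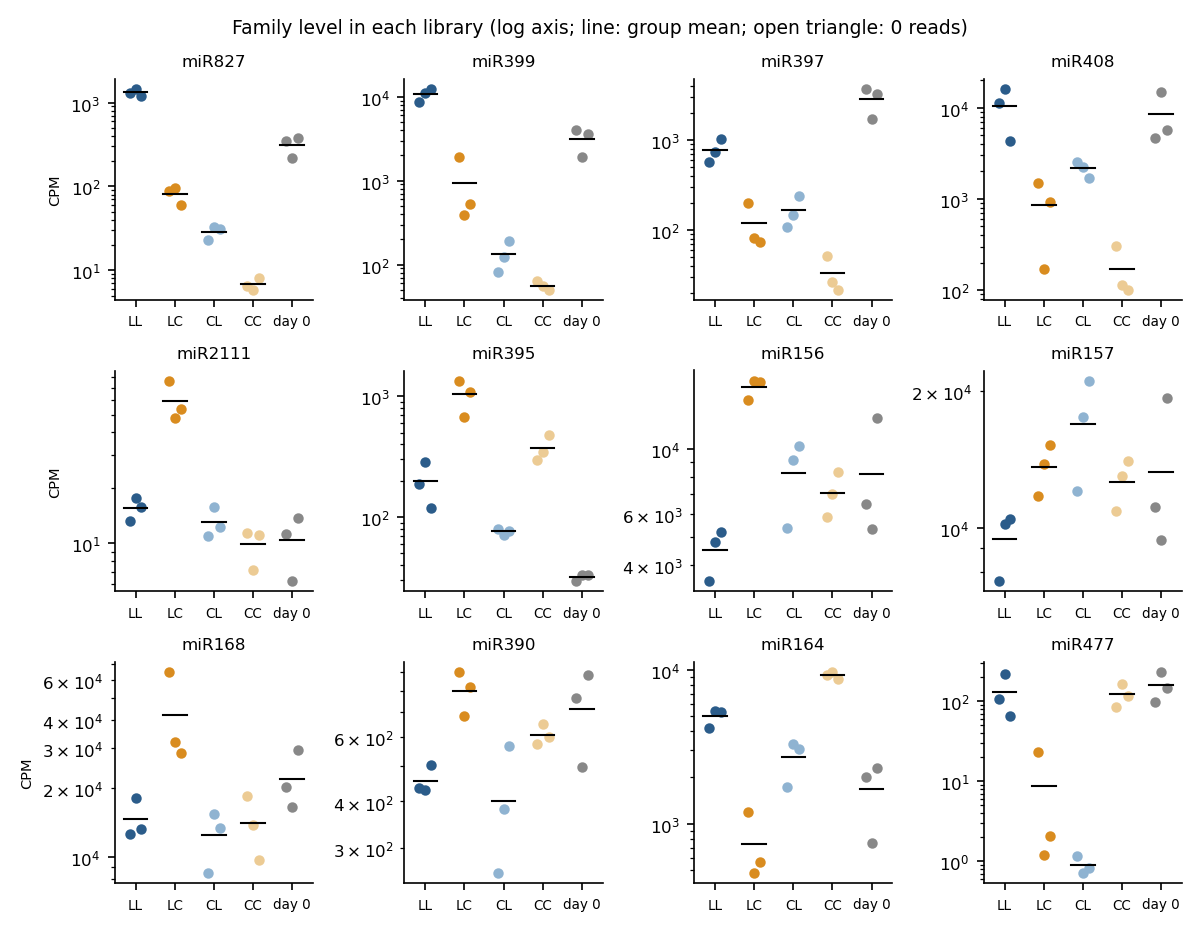
Level of 12 families in each library (CPM, log axis), 3 libraries a group, with the group mean as a line. In the top row every LL library lies above every LC library, and for miR2111, miR395, miR156, miR157, miR168 and miR390 every LL library lies below every LC library.

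None of the 4 families that target MYB and TCP factors passed. miR159, which represses GAMYB factors, stood at 71489, 104787 and 105710.0 CPM in the LL libraries, against 109188, 113161 and 109804 CPM in the LC libraries. LL lay below LC throughout, by log2 -0.24 ± 0.32 (adjusted p = 0.557), and by -0.84 with the factors of the miRNA table, where it passed (adjusted p = 0.0099), as it did without LC replicate 1 (-0.61, adjusted p = 0.0333). The family passed too with relative-log-expression factors and DESeq2 (-0.70 each, adjusted p = 0.026 and 0.0114). With all reads as library size it passed at -1.06 (adjusted p = 0.0015). Its main entry, miR159a_1, passed in the fit of single miRNAs (log2 -0.86 ± 0.24, adjusted p = 0.0103), a call lost when hairpin entries joined the table (-0.58, adjusted p = 0.0541). miR858, which represses MYB factors that switch on flavonoid genes, stood at 146357, 101344 and 159592 CPM in the LL libraries, against 137987, 157610.0 and 142245 CPM in the LC libraries, with overlap (log2 -0.10 ± 0.39, adjusted p = 0.842). Among its entries miR858a passed (log2 -0.85 ± 0.31, adjusted p = 0.0342) while the far larger miR858b did not (-0.71 ± 0.35, adjusted p = 0.123). miR319, which targets TCP factors, differed by 0.92 ± 0.43 (adjusted p = 0.109), by 0.25 without LL replicate 1, and passed with its most abundant entry in place of the sum (1.45, adjusted p = 0.019). miR828, another MYB regulator, differed by 0.38 ± 0.59 (adjusted p = 0.598). Of 12 single miRNAs in this list 1 rose and 2 fell (median log2 difference -0.50), where 31.8% rose and 19.0% fell over all tested.

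Among families of leaf, meristem and organ boundaries, miR164 rose and miR166, miR170, miR171 and miR396 did not pass. Over their 29 tested single miRNAs 6 rose and 6 fell (median log2 difference -0.63), where 31.8% rose and 19.0% fell over all tested. miR164, whose NAC targets shape organ boundaries and leaf ageing, stood at 4199, 5425 and 5328 CPM in the LL libraries, against 1187, 480.1 and 567 CPM in the LC libraries. All LL libraries exceeded all LC libraries, a 6.69-fold higher level (log2 2.74 ± 0.44, adjusted p = 0.000211). The mature entry miR164a_4 carried nearly all of it (log2 2.22 ± 0.33, adjusted p = 0.000208). The hairpin of miR164e-5p had 2, 28 and 43 reads in LL and 1, 0 and 1 in LC, a ratio of 35.2 with a counting interval of 9.41 to 296 (adjusted p = 0.0453, lost under 8 of 13 alternatives).

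miR166, which represses HD-ZIP factors of leaf polarity, stood at 238353, 351578 and 343591 CPM in the LL libraries, against 781877, 284174 and 384471 CPM in the LC libraries. LC replicate 1 was far above the rest, the other libraries overlapped, and log2 -0.64 ± 0.46 missed the threshold (adjusted p = 0.262). It passed with the factors of the miRNA table, at -1.18 (adjusted p = 0.0099). Of its 11 tested mature entries 4 fell and 1 rose. miR166d-5p_2 fell by 2.38 on the log2 scale, with 259, 331 and 277 CPM in LL and 1629.9, 1282 and 1599 CPM in LC (adjusted p = 0.000496), and miR166a-3p, which held most of the family, by 1.35 (adjusted p = 0.00786). The small entry miR166-3p rose, with 24.6, 31.0 and 21.4 CPM in LL and 12.04, 4.15 and 7.29 CPM in LC (log2 1.71 ± 0.47, adjusted p = 0.0097). The hairpin of miR166g-3p fell, with 5, 10 and 6 reads in LL and 193, 18 and 17 in LC (adjusted p = 0.018), a call lost without LL replicate 1, LL replicate 3 or LC replicate 1 and with the LL and LC libraries alone; without LC replicate 1 the log2 difference was -1.35. miR171, which represses GRAS factors of the meristem, stood at 2701, 3383 and 3943 CPM in the LL libraries, against 5110.1, 3579 and 3401 CPM in the LC libraries, with overlap (log2 -0.27 ± 0.31, adjusted p = 0.49). It passed, lower in LL, with relative-log-expression factors and DESeq2 (-0.71 each, adjusted p = 0.026 and 0.0114). So it did with all reads as library size (-1.06, adjusted p = 0.000847) and the factors of the miRNA table (-0.85, adjusted p = 0.00714). The related miR170 differed by -0.86 ± 0.73 (adjusted p = 0.34), with 12.4, 13.4 and 13.3 CPM in LL and 59.6, 5.23 and 6.74 CPM in LC. That value rested on LC replicate 1, and without it miR170 was higher in LL, at 0.79 (adjusted p = 0.0334).

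miR396, which represses growth-regulating factors, did not pass as a sum, with 15009.6 ± 1684 CPM in LL and 10320.0 ± 3151 CPM in LC (SD, n = 3 each). Its log2 difference was 0.54 ± 0.29 (adjusted p = 0.158), and -0.045 with the factors of the miRNA table. miR396b-3p_2 stood at 195, 234 and 263 CPM in the LL libraries, against 6.42, 17.0 and 14.1 CPM in the LC libraries. It was the only tested miRNA for which the LL libraries were the highest and the LC libraries the lowest of all 15, and it rose 18.4-fold (log2 4.20 ± 0.37, adjusted p = 3.74e-06). Its hairpin rose too, with 32, 39 and 35 reads in LL and 6, 4 and 1 in LC (log2 3.22 ± 0.48, adjusted p = 0.00035). Over the family, 3 of 5 tested entries named for the 3p strand rose and neither of the 2 named for the 5p strand passed. Summed group means of the 3p entries were 2291 CPM in LL and 689 CPM in LC, and those of the 5p entries 4422 CPM in LL and 5699.5 CPM in LC. Part of the 3p sum was miR396a-3p_4, which had 1296, 1465 and 1.48 CPM in LL and 7.63, 15.5 and 1.37 CPM in LC, so that it was high in 2 LL libraries and near 0 in the third (log2 6.80 ± 2.36, adjusted p = 0.0292). miR396a-3p_5 was steadier, with 297, 318.9 and 335 CPM in LL and 71.4, 164.1 and 147 CPM in LC (log2 1.31 ± 0.30, adjusted p = 0.00381).

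Of the 4 auxin families, miR167 rose and miR160, miR390 and miR393 did not pass. Of their 20 single miRNAs 3 rose and 1 fell (median log2 difference -0.22), where 31.8% rose and 19.0% fell over all tested. miR167, which targets auxin response factors, stood at 47408, 52805 and 50401 CPM in the LL libraries, against 27427, 27638 and 23793 CPM in the LC libraries. LL lay above LC throughout (log2 0.93 ± 0.27, adjusted p = 0.0109), but the call was lost by library size alone, with all reads as library size and with the factors of the miRNA table (log2 0.32, adjusted p = 0.276). Its largest entry, miR167f-5p, passed among single miRNAs, with 13818, 15385 and 18046 CPM in LL and 7659.9, 9163 and 7297 CPM in LC (log2 0.97 ± 0.26, adjusted p = 0.00899). The opposite strand, miR167f-3p_1, and its hairpin entry also rose (log2 1.17 ± 0.27 and 3.10 ± 0.33, adjusted p = 0.00418 and 6.73e-05).

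miR390, which triggers the trans-acting siRNAs that restrain auxin response factors, stood at 434, 430.4 and 503 CPM in the LL libraries, against 898, 680.4 and 818 CPM in the LC libraries. The groups did not overlap, and the log2 difference of -0.81 ± 0.32 missed the threshold (adjusted p = 0.0597). It passed with the factors of the miRNA table, at -1.40 (adjusted p = 0.000131), without LL replicate 1 (-1.08, adjusted p = 0.0131) and without LC replicate 1 (-1.05, adjusted p = 0.00738). The sum passed too with relative-log-expression factors, DESeq2, library size alone and all reads as library size (-1.59 to -1.01). So it did with the LL and LC libraries alone (-0.96, adjusted p = 0.0237) and with its most abundant entry (-1.39, adjusted p = 0.0179). The entry miR390a-5p passed among single miRNAs (log2 -1.82 ± 0.35, adjusted p = 0.00143). miR160, a regulator of another set of auxin response factors, had 5080.1, 1780.5 and 2131 CPM in LL and 353, 4632 and 2939 CPM in LC, a spread within groups larger than the difference (adjusted p = 0.854), whose sign turned without LL replicate 1 (-0.86) or LC replicate 1 (-0.65). miR393, which targets auxin receptors, differed by 0.46 ± 0.31 (adjusted p = 0.244).

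Among the families that act on the small-RNA machinery itself, miR168 fell, miR162 rose and miR403 did not pass. miR168, which represses the main ARGONAUTE of the miRNA pathway, stood at 12563, 18148 and 13296 CPM in the LL libraries, against 64761, 31827 and 28709 CPM in the LC libraries. Every LL library lay below every LC library, and LC replicate 1 stood well above the other LC libraries. The level was 2.85-fold lower in LL (log2 -1.51 ± 0.38, adjusted p = 0.00459). All 4 mature entries fell, miR168a-5p by 2.14 and the entry miR168 by 1.93 in log2 units (adjusted p = 8e-05 and 0.000506). Reads of the hairpin entry miR168 were 39, 29 and 35 in LL and 3398, 1553 and 69 in LC, so that LC replicate 3 was close to LL while the other LC libraries were far above it (log2 -5.61 ± 1.498, adjusted p = 0.0118). Without LC replicate 1 this was -4.51, and the call was lost without LL replicate 3. miR162, which targets the Dicer-like enzyme of the pathway, had 22759.6, 25360.4 and 12003 CPM in LL and 11301, 7382 and 13745 CPM in LC. The libraries overlapped, and the narrow call (log2 0.89 ± 0.33, adjusted p = 0.0435) was lost under 13 of 17 alternatives. miR403, which targets another ARGONAUTE, differed by 0.54 ± 0.26 (adjusted p = 0.111).

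Of the families outside these lists, miR169 and miR477 rose and the others tested did not pass. miR169, which targets NF-YA factors, stood at 47.7, 48.7 and 46.1 CPM in the LL libraries, against 24.5, 4.02 and 1.55 CPM in the LC libraries. It rose (log2 2.25 ± 0.71, adjusted p = 0.0192), lost the call under 4 of 17 alternatives, among them without LC replicate 2, and differed by 3.65 without LC replicate 1. Mature reads made 13.0% of the family's reads in LL and LC, and alone they did not pass (log2 1.21, adjusted p = 0.182). Its most abundant entry was the hairpin of miR169f.1, with 14.8, 18.2 and 13.7 CPM in LL and 5.62, 0 and 0 CPM in LC (log2 3.01 ± 1.14, adjusted p = 0.0558), and the 3 of its hairpins that could be tested did not pass. The mature entry miR169f.1 had 1, 1 and 1 reads in LL and 0 in every LC library, too few to compare. miR477 stood at 106, 218 and 66.1 CPM in the LL libraries, against 22.9, 1.21 and 2.07 CPM in the LC libraries, with LC again highest in replicate 1. It rose 15.0-fold (log2 3.91 ± 0.87, adjusted p = 0.00202), or by log2 5.92 without that library and 3.32 without LL replicate 2, and lost the call with the LL and LC libraries alone (adjusted p = 0.0586). Its entry miR477-5p_2 had 42, 67 and 30 reads in LL and 4, 0 and 0 in LC (log2 5.01 ± 1.12, adjusted p = 0.0045; 8.53 without LC replicate 1), and the hairpin of miR477a_3 had 20, 58 and 17 reads in LL and 1, 0 and 0 in LC, a ratio of 91.7 with a counting interval of 16.1 to 3659 (adjusted p = 0.00206). The fitted log2 difference of that hairpin was 6.17, 5.26 without LL replicate 2 and 8.14 without LC replicate 1. miR482, which targets resistance genes of the NB-LRR class, stood at 30539, 64392 and 42169.6 CPM in LL and 41674, 19484 and 25361 CPM in LC, with overlap (log2 0.66 ± 0.39, adjusted p = 0.174). miR394, miR4995, miR5368, miR6300 and miR845 did not pass, with log2 differences of -0.16, 1.30, 0.94, 1.58 and -1.45. The value of miR845 became 0.92 without LC replicate 1, the library that held most of its LC reads. miR6300 passed without LL replicate 3 (1.91, adjusted p = 0.0371) and without LC replicate 3 (2.11, adjusted p = 0.0402), and was 0.79 without LL replicate 1 and 0.88 without LC replicate 1. miR5368 was 0.12 without LL replicate 1, 0.13 without LC replicate 1 and 1.64 without LC replicate 2. miR4995 was 0.67 without LC replicate 1, and miR394 was -2.02 without LL replicate 1, -1.01 without LC replicate 1 and 0.95 without LC replicate 2. miR530 was too low to test.

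Reads of mature miRNAs and of their hairpins mostly pointed one way. For 84 names both could be tested, and the log2 differences had the same sign in 74. Both were called for 24 names, all 24 with the same sign. Hairpin entries count small-RNA reads listed under the hairpin name, which need not show the level of the precursor. How reads were divided between mature and hairpin entries is not given. The 2 kinds come from the same libraries and share their scaling, so they are not independent.

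Predicted miRNAs, which the authors named from loci on the genome without a known name, were called more often than known ones, at 44 of 74 (59.5%) against 47 of 105 (44.8%), a difference that was not tested. Of the predicted 32 rose (43.2%) and 12 fell (16.2%), and of the known 25 rose (23.8%) and 22 fell (21.0%). For 19 of the 32 predicted miRNAs that rose, the LC libraries were the lowest of all 15, and for 2 the LL libraries were the highest. Among the 25 known ones that rose, LC was lowest for 3 and LL highest for 9. Over all 179 tested miRNAs LC was lowest for 22 and LL highest for 11.

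novel_mir61 stood at 163, 246 and 181 CPM in the LL libraries, against 7.63, 18.9 and 24.6 CPM in the LC libraries (log2 3.53 ± 0.45, adjusted p = 7.52e-05). Group means elsewhere were 91.0 CPM in CL, 214 CPM in CC and 209.9 CPM in Control, and LC was lower than all of them. novel_mir5, novel_mir65, novel_mir40 and novel_mir35 were likewise lowest in LC, chosen here after their values were seen. novel_mir5 had 188 ± 27.1 CPM in LL and 19.2 ± 2.16 CPM in LC, and novel_mir65 had 226 ± 58.4 CPM in LL and 26.5 ± 14.9 CPM in LC (SD, n = 3 each). The more abundant novel_mir10 was chosen in the same way. It had 2609, 2289.8 and 2117.7 CPM in LL and 203, 535 and 369 CPM in LC (log2 2.66 ± 0.30, adjusted p = 2.98e-05). novel_mir48 and novel_mir35 had small errors, with log2 differences of 2.11 ± 0.17 and 2.15 ± 0.19 (adjusted p = 3.74e-06 and 3.74e-06).

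novel_mir2 had 52, 59 and 54 reads in LL and novel_mir37 had 60, 82 and 73 reads in LL, and both were listed at 0 in all LC libraries. The lowest count above 0 of any predicted miRNA in these libraries was 11, so a listed 0 may hide a few reads and no fold is given. Both passed (adjusted p = 3.78e-07 and 0.000944). novel_mir12 had 194, 179 and 261 reads in LL and 0, 11 and 11 in LC (log2 4.75 ± 1.62, adjusted p = 0.0272), a call lost when any 1 LC library was left out (4.05 without LC replicate 1; adjusted p = 0.0589 to 0.0677).

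Of the predicted miRNAs that fell, novel_mir29 stood at 37.9, 78.4 and 17.7 CPM in the LL libraries, against 2681, 1230.2 and 1944 CPM in the LC libraries (log2 -5.45 ± 1.16, adjusted p = 0.0023; -6.07 without LL replicate 2). It was high only in LC, with 54.1 CPM in CL, 124 in CC and 69.6 in Control. novel_mir54 stood at 8287, 7544 and 10802 CPM in the LL libraries, against 28972, 40061 and 34190.2 CPM in the LC libraries (log2 -1.95 ± 0.26, adjusted p = 8e-05). Here the LL libraries were the lowest of all 15 instead. novel_mir45 fell by 2.03 on the log2 scale, with 16.7, 28.8 and 24.4 CPM in LL and 154, 56.2 and 75.2 CPM in LC (adjusted p = 0.00555).

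**Figure D3:**
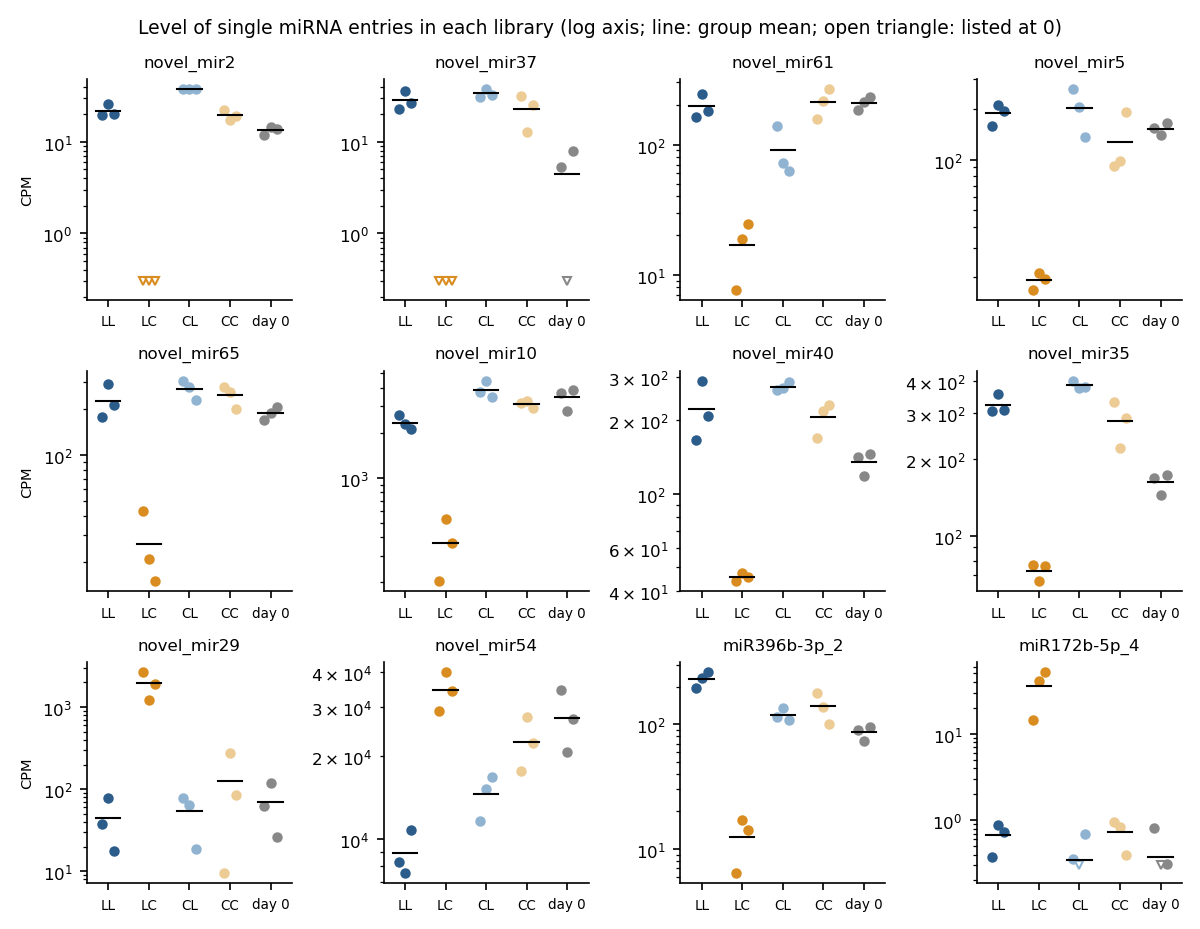
Level of 12 single miRNA entries in each library (CPM, log axis), 3 libraries a group, with the group mean as a line and open triangles for libraries listed at 0. The 8 predicted miRNAs of the first rows are low or at 0 in LC, novel_mir29 and miR172b-5p_4 are high in LC alone, and novel_mir54 is lowest in LL.

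**Figure D4:**
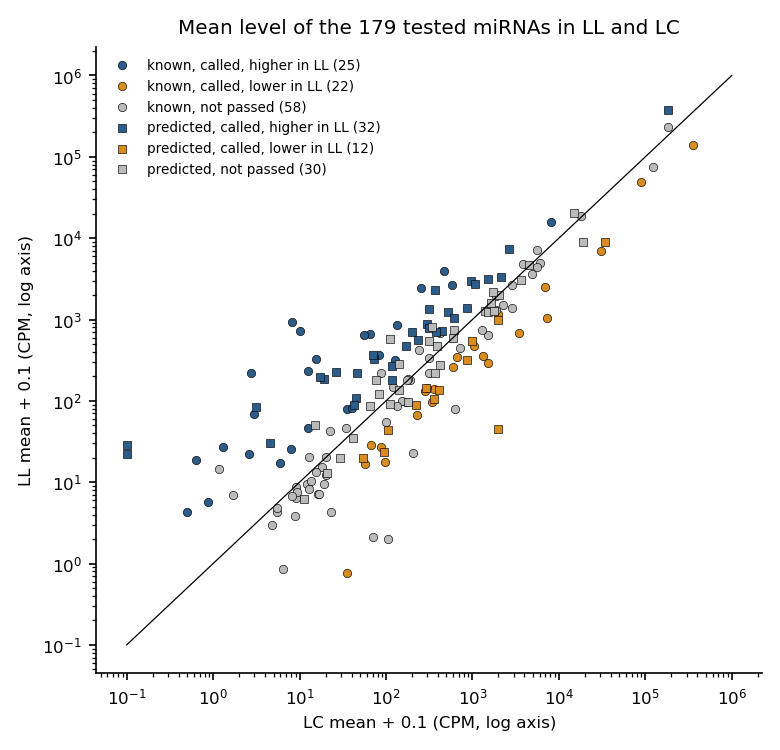
Mean level in LL against mean level in LC of the 179 tested miRNAs (CPM plus 0.1, log axes), with circles for known and squares for predicted ones. Of those called, 25 known and 32 predicted lie above the line of equal level, 22 known and 12 predicted below it, and the 2 squares at the left edge were listed at 0 in LC.

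The 10 most abundant miRNAs of the 6 libraries were novel_mir73, miR166a-3p, miR398b, miR858b, miR159a_1, novel_mir54, miR168a-5p, miR482d-3p_2, novel_mir21 and novel_mir53, and in each library its own 10 most abundant held 87.2% to 89.6% of miRNA reads in LL and 86.1% to 92.7% in LC. novel_mir73, the largest, took 24.5%, 42.2% and 37.1% of the miRNA reads in LL and 15.0%, 14.2% and 17.3% in LC. LL replicate 1 lay under the highest LC library in CPM, and the log2 difference of 1.07 ± 0.33 passed (adjusted p = 0.018) but lost its call with the LL and LC libraries alone and without LL replicate 2 or 3 or LC replicate 2 or 3. miR482d-3p_2, novel_mir21 and novel_mir53 did not pass (adjusted p = 0.912, 0.314 and 0.218), and novel_mir53 had 1 high library, LC replicate 3, at 37867 CPM against 11168 and 8777 CPM in the other LC libraries (log2 difference -1.09 ± 0.68, or -0.14 without that library).

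Whether shade made the same difference in the warm regime was tested as the interaction, the LL minus LC difference less the CL minus CC difference. Of 179 miRNAs 62 passed (34.6%), 45 higher (25.1%) and 17 lower (9.50%), and of 34 families 10 passed (29.4%), 8 higher (23.5%) and 2 lower (5.88%). With every read of a library taken as its size the miRNA calls were 60, 35 higher and 25 lower. The family split was 5 and 5 with the factors of the miRNA table, 5 and 7 with relative-log-expression size factors or all reads as library size, and 6 and 9 with DESeq2. Of hairpin entries 15 of 105 passed (14.3%), 8 higher (7.62%) and 7 lower (6.67%).

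miR164 went opposite ways in the regimes. It averaged 4984 ± 681 CPM in LL and 745 ± 386 CPM in LC, and 2695 ± 852 CPM in CL and 9223 ± 469.7 CPM in CC (SD, n = 3 each), so that the lower light went with a higher level in the cool regime and a lower one in the warm (interaction log2 4.52 ± 0.62, adjusted p = 6.54e-05; 3.90 without LL replicate 1). miR169 averaged 47.5 ± 1.30 CPM in LL and 10.02 ± 12.6 CPM in LC, and 5.92 ± 2.43 CPM in CL and 73.4 ± 25.0 CPM in CC, the same pattern (interaction 5.85 ± 1.04, adjusted p = 0.000712). Without LL replicate 1 or LC replicate 1 this was 5.16 or 6.76. miR477 averaged 130.2 ± 78.8 CPM in LL and 8.72 ± 12.3 CPM in LC, and 0.895 ± 0.231 CPM in CL and 122 ± 40.3 CPM in CC, and it passed as well (adjusted p = 6.54e-05). Since CL was close to 0, the fitted interaction of 10.86 ± 1.41 does not measure its size; it was 10.27 without LL replicate 2 and 12.38 without LC replicate 1.

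miR156 averaged 8239 ± 2560.3 CPM in CL and 7061 ± 1247 CPM in CC (log2 0.22), beside a cool difference of -1.86 (interaction -2.08 ± 0.48, adjusted p = 0.00597). miR2111 differed by 0.39 in the warm regime and -1.93 in the cool (interaction -2.33 ± 0.59, adjusted p = 0.00854). Without LL replicate 1 or LC replicate 1 the interactions were -2.75 or -2.996 for miR156 and -2.99 or -2.93 for miR2111. For both families the LC libraries exceeded every other library of the series. miR157, miR168 and miR858 did not pass (interactions -0.95 ± 0.42, -1.34 ± 0.53 and -1.31 ± 0.55, adjusted p = 0.107, 0.0725 and 0.0942), but did with the factors of the miRNA table, at -1.18, -1.56 and -1.47 (adjusted p = 0.0122, 0.00523 and 0.0397). They passed too with DESeq2, with size factors by relative log expression, with every read as library size, and when some single libraries were left out. miR157 was -1.64 without LL replicate 1 (adjusted p = 0.0026), -1.89 without LC replicate 1 (adjusted p = 0.000124) and -1.39 without CC replicate 3 (adjusted p = 0.00816). miR858 was -2.17 without LL replicate 1 (adjusted p = 0.0314), -2.16 without LC replicate 1 (adjusted p = 0.0203) and -1.64 without CL replicate 1 (adjusted p = 0.0154), but -0.63 without CL replicate 3. miR168 was -1.96 without LL replicate 1 (adjusted p = 0.00904) and passed as well without LC replicate 1 or 3, CL replicate 1 or CC replicate 1 or 3, at -1.44 to -1.69. miR319, miR403 and miR4995 passed, with interactions of 2.12 ± 0.61, 1.16 ± 0.37 and 2.86 ± 0.95 (adjusted p = 0.0182, 0.03 and 0.0324), but lost the call under 8 of 22, 13 of 22 and 15 of 22 alternatives, each of them without LL replicate 1 and without LC replicate 1. Without those libraries the interactions were 0.96 and 1.37 for miR319, 0.35 and 0.20 for miR403 and 2.08 and 1.75 for miR4995, which was 1.42 without CC replicate 2.

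For miR827 and miR399 the mean level was higher under 40% light in both regimes, by more in the cool one. Tested in the warm regime (CL minus CC, edgeR), miR827 passed (adjusted p = 0.000453) and miR399 did not (adjusted p = 0.0836). miR827 averaged 29.0 ± 5.19 CPM in CL and 6.82 ± 1.18 CPM in CC (log2 2.07; interaction 1.94 ± 0.47, adjusted p = 0.0076), a call lost without LL replicate 1 (1.13, adjusted p = 0.0725) and of 1.15 without LC replicate 1. miR399 averaged 132 ± 56.6 CPM in CL and 56.3 ± 6.98 CPM in CC (log2 1.23; interaction 2.27 ± 0.73, adjusted p = 0.0302), a call lost with the most abundant entry in place of the sum and without 8 single libraries, LL replicates 1, 2 and 3, LC replicates 2 and 3, CL replicates 1 and 2 and CC replicate 2. For miR397, miR408 and miR395 no difference between regimes was shown, with warm log2 differences of 2.31, 3.65 and -2.29 beside cool ones of 2.73, 3.62 and -2.39 (interaction adjusted p = 0.817, 0.975 and 0.943).

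Given as shares of all reads, 8 of 13 RNA classes (61.5%) did not overlap between LL and LC, each with p = 0.1 in an exact two-sided permutation test, the smallest value that 3 against 3 libraries allow. Mature miRNAs took 8.57, 6.67 and 8.68% of reads in the LL libraries, against 19.7, 10.9 and 9.63% in the LC libraries. Predicted miRNAs ran the other way, at 4.61, 6.96 and 7.200% in LL and 5.15, 3.85 and 4.33% in LC, with overlap (exact p = 0.200). Mature, hairpin and predicted entries together took 15.1 ± 1.46% in LL and 19.0 ± 6.44% in LC (SD, n = 3 each), with overlap and LC replicate 1 highest.

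Reads in intergenic sequence were the largest class, at 58.5, 58.1 and 56.9% in LL and 46.0, 50.0 and 50.2% in LC, so LL was above LC throughout. Among the small classes, other Rfam RNAs took 0.0937, 0.0756 and 0.0669% in LL and 0.411, 0.188 and 0.239% in LC, and most of this class was the transfer-messenger RNA named above. tRNA reads took 0.0108, 0.00849 and 0.00864% in LL and 0.0657, 0.0152 and 0.150% in LC, and the LC libraries differed widely among themselves. Ribosomal RNA took 1.26 ± 0.0908% in LL and 1.77 ± 0.396% in LC, and hairpins 0.855 ± 0.0196% in LL and 1.14 ± 0.374% in LC. Precursors of the Rfam list took 0.0404 ± 0.00582% in LL and 0.0842 ± 0.0300% in LC, and snRNA 0.0139 ± 0.000174% in LL and 0.0233 ± 0.00406% in LC. Predicted siRNAs, introns, exons and snoRNA overlapped between the groups, siRNAs at 2.43 ± 0.249% in LL and 3.201 ± 0.492% in LC. By limma on log2 percent over all 13 classes, 3 passed (23.1%), all lower in LL: other Rfam RNAs, precursors and snRNA (adjusted p = 0.00638, 0.00638 and 0.0263). The 66 precursors named for non-plant families averaged 3.17 ± 0.815 RPM in LL and 191 ± 75.5 RPM in LC. The 23 named for plant families averaged 401 ± 58.2 RPM in LL and 651 ± 226 RPM in LC (SD, n = 3 each). LC replicate 1 was their highest library, at 909 RPM. These sets were not tested apart.

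**Figure D5:**
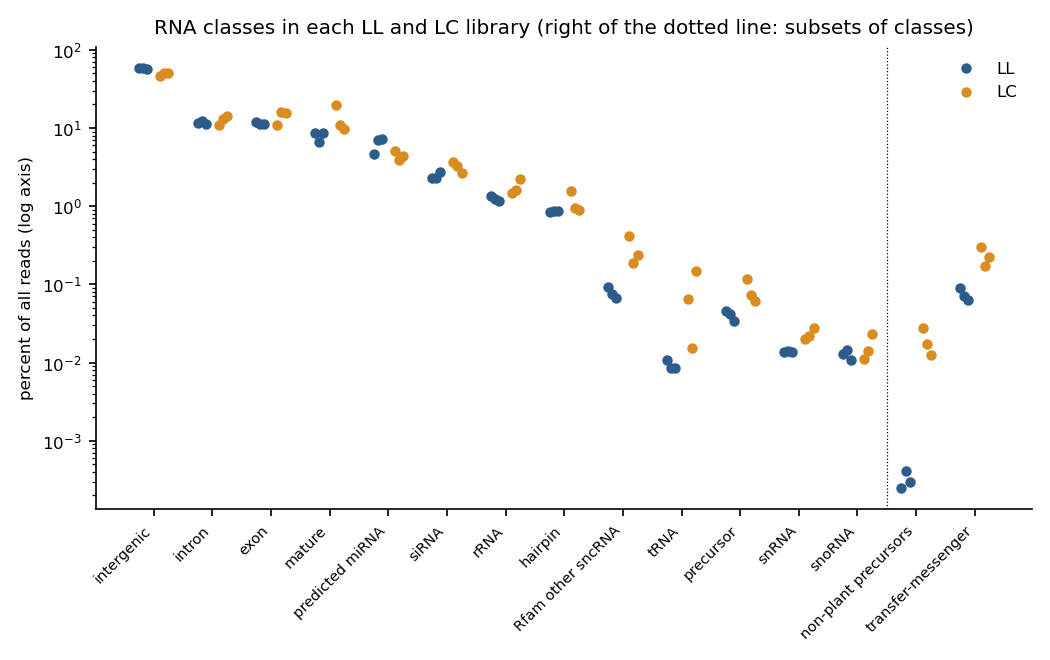
Percent of all reads in each RNA class (log axis) in the 3 LL and 3 LC libraries, with the entries named for other organisms at the right. LL points lie below LC points for mature, hairpin, rRNA, other Rfam, tRNA, precursor and snRNA, and above them for intergenic reads.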

How the data were processed

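Leaf small RNA was sequenced in 15 libraries, 3 in each of 5 groups named by the sample labels. Per the labels' protocols, libraries came from total RNA by PCR and gel size selection. The authors deposited 1 table with raw counts of reads per feature, and TPM values, which per the file headers and the values are reads scaled to the whole library and were not used. Not given in the sources used here are the aligner, the genome build, the annotation and how multiply matching reads were counted. No sequence accompanies the names.

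The entries and lists were chosen with earlier results of these data known. Mature and predicted miRNAs were tested singly, hairpin entries with the scaling of that table, and families as sums of mature and hairpin reads by the number in the name, scaled by TMM on those sums. edgeR 4.0.16 (R 4.3.3; filterByExpr by group, glmQLFit, glmQLFTest) fitted 1 mean per group over all 15 libraries. SE is the log2 difference over the root of F. CPM of single entries and of families have different denominators and are not compared with each other. Class shares were tested by exact permutation, and other settings used DESeq2 1.42.0 and limma 3.58.1. The fits of LL against LC, not those of the interaction, were tested on simulated data, with hairpin entries there scaled by their own TMM. In each simulated set 44 of 179 miRNAs, 8 of 34 families and 25 of 102 hairpin entries were changed, with random sign. The real data had more calls than that (50.8% of miRNAs), so the simulated shares may not hold there. Of the simulated calls, 3.71%, 6.25% and 4.12% were false. True 2-fold changes were called in 16.0% of miRNAs, 13.0% of families and 3.9% of hairpin entries. For true 4-fold changes this was 61.5%, 75.9% and 35.2%, so a feature that did not pass may still differ. Counting intervals are 95% and exact, and cover counting error only.

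Entries are named if called without overlap at 10 CPM or more (the 12 largest rises and falls), among the 10 most abundant miRNAs, at 0 in 1 group only, among the 5 largest hairpin rises and falls, in a listed family, or among the 10 smallest interaction p-values or the families called there. Outside this rule, novel_mir5, novel_mir10, novel_mir40 and novel_mir65 were named after their values were seen. Counts of deposited reads totalled 15652847 to 20613304 in these 6 libraries.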

Additional observations from a re-analysis of the deposited data

Results flagged for a closer look

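The difference between 40% and 100% light was not the same in the cool as in the warm regime for 10 families, by the test of the interaction (LL minus LC less CL minus CC, edgeR, adjusted p under 0.05). The interactions were 4.52 for miR164, 5.85 for miR169, 10.86 for miR477, 2.27 for miR399, 1.94 for miR827, 2.12 for miR319, 1.16 for miR403, 2.86 for miR4995, -2.08 for miR156 and -2.33 for miR2111, all on the log2 scale. For miR319, miR403, miR4995, miR399 and miR827 the call did not survive the loss of a single library, with the values given above.

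Among single entries the regimes differed for the known miRNAs miR156a (-2.67), miR156a-5p (-2.55), miR156k_2 (-2.43; -3.08 without LC replicate 1), miR164a_4 (4.37; 3.77 without CC replicate 2), miR168a-5p (-1.72), miR396b-3p_2 (4.43; 3.75 without LC replicate 1) and miR827a (1.94; 1.32 without LC replicate 1, and a call lost by library size alone, 1.47, adjusted p = 0.0965). The entry miR858b differed too (-1.47), a call lost without LC replicate 2, LC replicate 3 or CL replicate 3, with the replicate block (-1.44, adjusted p = 0.0591) and with hairpin entries added (-1.41, adjusted p = 0.0664), and its value was -2.21 without CL replicate 2. For miR172b-5p_4 (-4.67), miR399a_3 (7.03), miR399f_3 (5.90) and miR477-5p_2 (12.44) some groups held few or no reads, so these fitted values do not measure size. They were -5.40 without LC replicate 1, -5.69 without CL replicate 2 and -3.89 without CL replicate 3 for miR172b-5p_4, where the call was lost without CL replicate 3, 6.37 without LL replicate 3, 10.51 without LC replicate 1, 6.41 without LC replicate 2, 6.16 without CL replicate 2 and 6.38 without CC replicate 2 for miR399a_3, 8.98 without LC replicate 1, 5.31 without LC replicate 3, 5.25 without CL replicate 1 and 4.76 without CC replicate 2 for miR399f_3, where the call was lost without CL replicate 1, CL replicate 2 or CC replicate 2, and 15.81 without LC replicate 1, 11.85 without LC replicate 2 and 11.86 without CC replicate 2 for miR477-5p_2.

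Of predicted miRNAs the regimes differed for novel_mir20 (1.67; 1.05 without CL replicate 2), novel_mir35 (1.68; 1.08 without CL replicate 2), novel_mir44 (2.98; 2.38 without CL replicate 2 and 2.37 without CC replicate 2), novel_mir48 (1.82; 1.19 without CL replicate 2), novel_mir54 (-1.33; -1.98 without CC replicate 2), novel_mir58 (2.15) and novel_mir61 (4.76; 4.001 without LC replicate 1 and 4.16 without CL replicate 2). novel_mir73 differed by 2.06, a call lost without CL replicate 2 or CC replicate 2 (1.30 without CL replicate 2 and 1.36 without CC replicate 2). novel_mir29 differed by -4.25, or -5.07 without LL replicate 2 and -6.17 without CC replicate 2, and its call was lost without LL replicate 1 or 3, LC replicate 3, CL replicate 1 or CC replicate 3. novel_mir2 (7.93) and novel_mir37 (8.71; 8.03 without CC replicate 1) were listed at 0 in all LC libraries, and novel_mir12 (7.83; 6.81 without LC replicate 1 and 5.89 without CC replicate 2) in 1 of them, so these values do not measure size either.

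Among hairpin entries the regimes differed for miR156c_1 (-2.83), miR396b-3p_2 (4.06), miR164e-5p (8.02; 10.27 without CL replicate 3), miR166g-3p (-4.62; -2.55 without LC replicate 1 and -5.77 without CC replicate 2) and miR477a_3 (13.50; 12.60 without LL replicate 2 and 15.47 without LC replicate 1). The calls of miR164e-5p and miR166g-3p were each lost under 9 of 19 alternatives, among them without LL replicate 3 and without LC replicate 1, and miR477a_3 had 0 reads in CL.

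Entries for transfer-messenger RNA, which enter no comparison of the members, carried signal above the untreated leaves in one of the groups. They averaged 745 ± 132 RPM, taken over all reads, in LL and 2306 ± 660.1 in LC (SD, n = 3 each), where the day 0 leaves ranged over 668 to 1242. Every LC library exceeded every day 0 library, and the LL libraries did not.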

How the results depend on the processing

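Of the named results called for LL against LC, 27 of 33 miRNAs, 8 of 13 families and 7 of 10 hairpin entries kept call and direction under every alternative run. Among interactions 18 of 24 miRNAs, 5 of 10 families and 3 of 5 hairpin entries did. Leaving out 1 library at a time, the calls for LL against LC ranged over 76 to 89 miRNAs, 11 to 17 families and 25 to 34 hairpin entries. For the interaction they ranged over 51 to 65 miRNAs and 7 to 13 families. With predicted miRNAs left out, 45 of 105 miRNAs were called, 25 higher and 20 lower, a smaller number tested. With all reads as library size 13 of 41 hairpin calls were higher, beside 15 of 35. Limma on log2 percent called 3 class shares where the exact test could call none. No named result that had been called took the opposite sign. Of families not called, the scalings turned the sign of miR160 (-0.33 with relative-log-expression factors, -0.34 by library size alone, -0.69 with all reads as library size, -0.33 with DESeq2, -0.52 with the factors of the miRNA table) and, in the same order, of miR172 (-0.32, -0.15, -0.66, -0.32 and -0.47). The same scalings other than library size alone gave -0.011, -0.36, -0.012 and -0.15 for miR393 and -0.083, -0.42, -0.085 and -0.23 for miR828. With all reads and with the miRNA factors miR396 stood at -0.23 and -0.045 and miR403 at -0.29 and -0.084, and with all reads alone miR482 stood at -0.13. The entry miR482d-3p_2, near 0 throughout, stood at -0.17 with all reads, -0.010 and -0.011 with other filters, -0.18 with LL and LC alone and -0.033 without predicted miRNAs. Leaving out 1 library gave -0.86 to 0.86 for miR160, -1.34 to 0.79 for miR170, -0.35 to 0.44 for miR172, -2.02 to 0.95 for miR394, -0.019 to 0.62 for miR828, -1.98 to 0.92 for miR845, -0.49 to 0.068 for miR858, -0.11 to 2.05 for miR398b and -0.16 to 0.21 for miR482d-3p_2. The share of snoRNA, percentage points LL minus LC, was -0.00591 to 5.61e-05. The share of all members was 2.79 points higher in LL with exon, intron and intergenic reads out of the denominator. With the replicate number as a block, 89 miRNAs, 12 families and 38 hairpin entries were called, with 57 miRNAs and 9 families for the interaction, and miR160 was at -0.17. Same-numbered LL and LC libraries deviated with correlations of 0.05, -0.40 and -0.37, and LL replicate 3 lay closest to LC replicate 2 (0.54). Deviations from a mean of 3 libraries are tied to each other, so these values cannot decide whether same-numbered libraries share a batch. The labels name no batch. The family fit with the factors of the miRNA table was chosen after seeing the data. The cause of these shifts was not tested. Entries with few reads in LC are the least precise, and 3 libraries a group limit all of them.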
